A study of Mus musculus with 4 samples.

Results

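The genes described here are 38 genes of DNA replication and cell division, listed by name and role and not by a threshold on their values. They comprise 15 genes of replication and nucleotide supply, the 2 cyclins E, and 21 genes of mitosis and its preparation. Of the 38, 37 were measured among the 12393 genes read from the array, and Ccnb1 was not analysed here. Where an array carried several probe sets for a gene, the one with the largest average signal stood for it, a choice that does not use the groups.

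The mice were wild type, of genetic background C57/BL6 and 1 month of age, and each liver was hybridised to 1 Affymetrix array. The control group held 2 mice and the other group 2 mice starved for 24 h, as the titles and the treatment field give it. The description field calls the control mice not injected and the starved mice injected, and what was injected was not settled. No other allele or agent is named for either group. The 6 hepatocyte markers examined (Alb, Apoa1, Ttr, Serpina1c, Tat and Fga) lay above the array's median on all 4 arrays, matching the tissue label. The titles call the mice of a group biological replicates, so p-values reflect only how these few mice varied. In whole liver, fewer cells of a type and less RNA per cell cannot be told apart.

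Cells that prepare to divide load the MCM helicase onto replication origins, raise the supply of deoxynucleotides and copy their DNA in S phase. They then build a spindle and separate the chromosomes in mitosis. Transcription factors of the E2F family govern many genes of the first step, and complexes that bind the cell cycle homology region, together with NF-Y on nearby CCAAT boxes, govern many genes of the second. Hepatocytes of a growing mouse still divide, and most hepatocytes of an adult rest.

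The promoters of the genes differ in the motifs they hold. RefSeq promoters of the mouse assembly GRCm38.p6, from 250 bases before to 50 bases after the most upstream start of each gene, matched 30 of the 37 measured members; Ccna2, Ccne2, Aurkb, Foxm1, Mcm4, Gins1 and Tpx2 did not match. Both strands were searched for TTTGAA (the cell cycle homology region), for CCAAT, and for an E2F motif in any of the forms TTTCCCGC, TTTGGCGC, TTTCGCGC and TTTGCCGC. The E2F forms may overlap each other, and a promoter counts once for each motif. The E2F motif stood in 6 of 13 replication promoters (46.2%) and 1 of 16 mitosis promoters (6.25%), against 3.59% of the 9887 promoters of genes on the array. The cell cycle homology region stood in 2 of 13 replication promoters (15.4%) and 12 of 16 mitosis promoters (75.0%), against 13.0% on the array. CCAAT stood in 69.2% of the replication and 81.2% of the mitosis promoters, against 38.3%. These counts describe letters in a window and not binding, and no match says only that the letters are not in it.

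**Figure D1:**
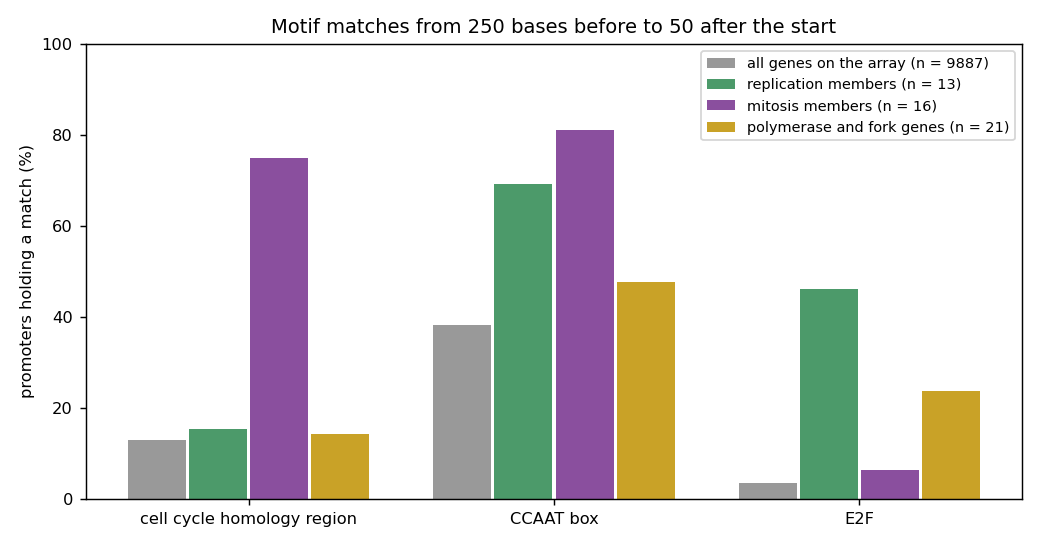
Share of promoters (%, vertical axis) holding at least 1 match to each of 3 motifs, for 9887 genes on the array, 13 replication members, 16 mitosis members and 21 polymerase and fork genes. The E2F motif stood in 46.2% of replication and 6.25% of mitosis promoters, and the cell cycle homology region in 15.4% and 75.0%.

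The 250 bases before the start are shown for 6 members, 5′ to 3′, with the matches in capitals. Mcm7 and Pcna are 2 of the 4 replication members with the highest mean signal (Tk1 and Rrm2 are the others), and Mad2l1 is the mitosis member that was not low on every array. Mcm6, Cdk1 and Kif11 were chosen after their matches were seen, because they show the E2F motif, both motifs, and the mitotic arrangement.
Mcm7 (chr5:138171884-138172133, minus strand): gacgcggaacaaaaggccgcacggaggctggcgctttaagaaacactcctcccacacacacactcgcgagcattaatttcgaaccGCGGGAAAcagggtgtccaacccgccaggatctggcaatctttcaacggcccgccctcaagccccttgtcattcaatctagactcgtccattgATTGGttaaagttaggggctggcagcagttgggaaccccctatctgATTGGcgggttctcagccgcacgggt
Mcm6 (chr1:128359706-128359955, minus strand): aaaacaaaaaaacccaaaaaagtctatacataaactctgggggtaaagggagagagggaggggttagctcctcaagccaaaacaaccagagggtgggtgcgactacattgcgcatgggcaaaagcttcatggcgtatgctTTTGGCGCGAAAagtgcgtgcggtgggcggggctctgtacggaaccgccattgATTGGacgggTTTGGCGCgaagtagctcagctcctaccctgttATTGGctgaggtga
Pcna (chr2:132253181-132253430, minus strand): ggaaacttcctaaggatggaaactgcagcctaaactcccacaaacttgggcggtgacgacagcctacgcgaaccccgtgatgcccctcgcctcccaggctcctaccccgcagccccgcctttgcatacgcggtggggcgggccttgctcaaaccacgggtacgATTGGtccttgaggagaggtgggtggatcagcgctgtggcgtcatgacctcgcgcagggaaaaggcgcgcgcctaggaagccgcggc
Cdk1 (chr10:69352913-69353162, minus strand): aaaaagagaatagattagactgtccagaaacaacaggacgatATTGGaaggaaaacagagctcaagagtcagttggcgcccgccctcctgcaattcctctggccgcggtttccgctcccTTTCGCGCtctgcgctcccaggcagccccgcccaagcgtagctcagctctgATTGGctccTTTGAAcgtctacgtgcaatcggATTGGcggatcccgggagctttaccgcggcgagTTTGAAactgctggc
Kif11 (chr19:37376132-37376381, plus strand): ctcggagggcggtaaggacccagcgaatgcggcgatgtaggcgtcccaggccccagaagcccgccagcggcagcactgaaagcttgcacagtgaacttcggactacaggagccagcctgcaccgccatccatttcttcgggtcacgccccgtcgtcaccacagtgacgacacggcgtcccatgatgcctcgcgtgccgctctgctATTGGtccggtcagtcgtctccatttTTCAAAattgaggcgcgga
Mad2l1 (chr6:66534971-66535220, plus strand): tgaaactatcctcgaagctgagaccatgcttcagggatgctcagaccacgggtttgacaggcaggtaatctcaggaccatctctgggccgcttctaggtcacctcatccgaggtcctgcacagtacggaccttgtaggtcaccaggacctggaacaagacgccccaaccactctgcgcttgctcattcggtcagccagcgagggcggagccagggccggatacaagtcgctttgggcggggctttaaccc

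In Mcm6 the E2F forms that start 110 and 106 bases before the gene's start overlap on opposite strands, and another lies 47 bases before it. Mcm7 held 1 E2F form 165 bases before its start and another 17 bases after it. The matches of Mcm3, at 20 and 39 bases after its start, and of Cdt1, at 33 bases after it, fall outside the stretch shown. In Kif11 a CCAAT box at 45 bases before the start was followed by a cell cycle homology region at 19 bases before it. Cdk1 held this arrangement (CCAAT at 80 and at 48, homology region at 71 and at 15 bases before the start) and an E2F form at 131. Pcna held 1 CCAAT box, at 87 bases before its start, and Mad2l1 held 0 of the 3 motifs.

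Most of the genes gave low signals in these livers, in both groups. All values are log2 RMA signals. A gene is marked low where it lay under the array's median over all genes (7.16 to 7.20) on all 4 arrays, and very low where it lay under the lower quartile (5.48 to 5.53) on all 4. Of the 37 members, 29 were low, against 46.9% of all genes, and 15 were very low, against 22.4%. The mark fell on 19 of 20 mitosis members, 8 of 15 replication members and both cyclins E. Only Pcna, Mcm7 and Tk1, all of them replication members, lay above the median on every array. For Mcm7 this rests on the probe set that stood for it. Its further probe sets read 7.03 to 7.37, above the median on some arrays and under it on others. The mark does not say that a transcript is absent, since no detection calls were used.

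**Figure D2:**
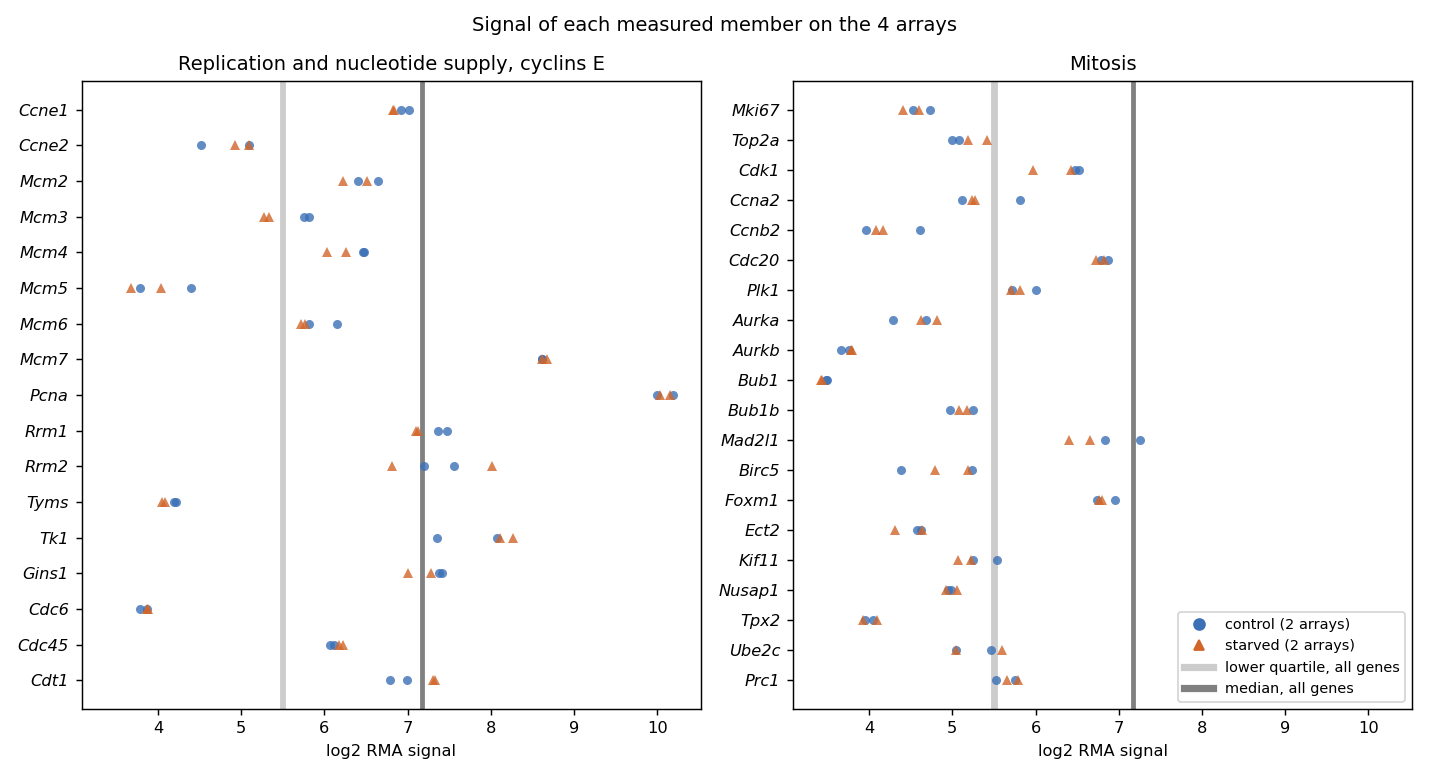
Log2 RMA signal (horizontal axis) of the 37 measured members on 2 control arrays (circles) and 2 starved arrays (triangles), with the median and the lower quartile of all genes as grey bands. Of the mitosis members 19 of 20 lie under the median on all 4 arrays, and Pcna, Mcm7 and Tk1 lie above it on all 4.

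In the signals of these genes, 29 of 37 of them low on all 4 arrays, starved and control livers differed little. None of the 37 passed the limma test over all genes at an adjusted p of 0.05 (0 higher and 0 lower; smallest adjusted p = 0.24), a test that 8 genes, or 0.0646% of all, did pass. That count of 8 was itself unstable: leaving out control 1 gave 59, control 2 gave 14, starved 1 gave 2 and starved 2 gave 11, and it was 27 with trend and robust settings, and 0 with quantile normalization or the replicate block. Past an unadjusted p of 0.05 in limma, 1 member was higher in starved liver, where 5.25% of all genes were, and 4 were lower, where 6.02% were. The groups did not overlap for 6 members that were higher, against 21.4% of all genes, and for 11 that were lower, against 20.9%. The median difference, starved minus control, was -0.055 over the members and 0.003 over all genes. With standard errors of 0.11 to 0.39, the 95% interval of the difference lay within 1 log2 unit of 0 on both sides for 35 of the 37, the exceptions being Tk1 and Rrm2. It lay on 1 side of 0 for 5 members, Mcm3, Mcm4, Rrm1, Mad2l1 and Cdt1, the same 5 that passed the unadjusted threshold.

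**Figure D3:**
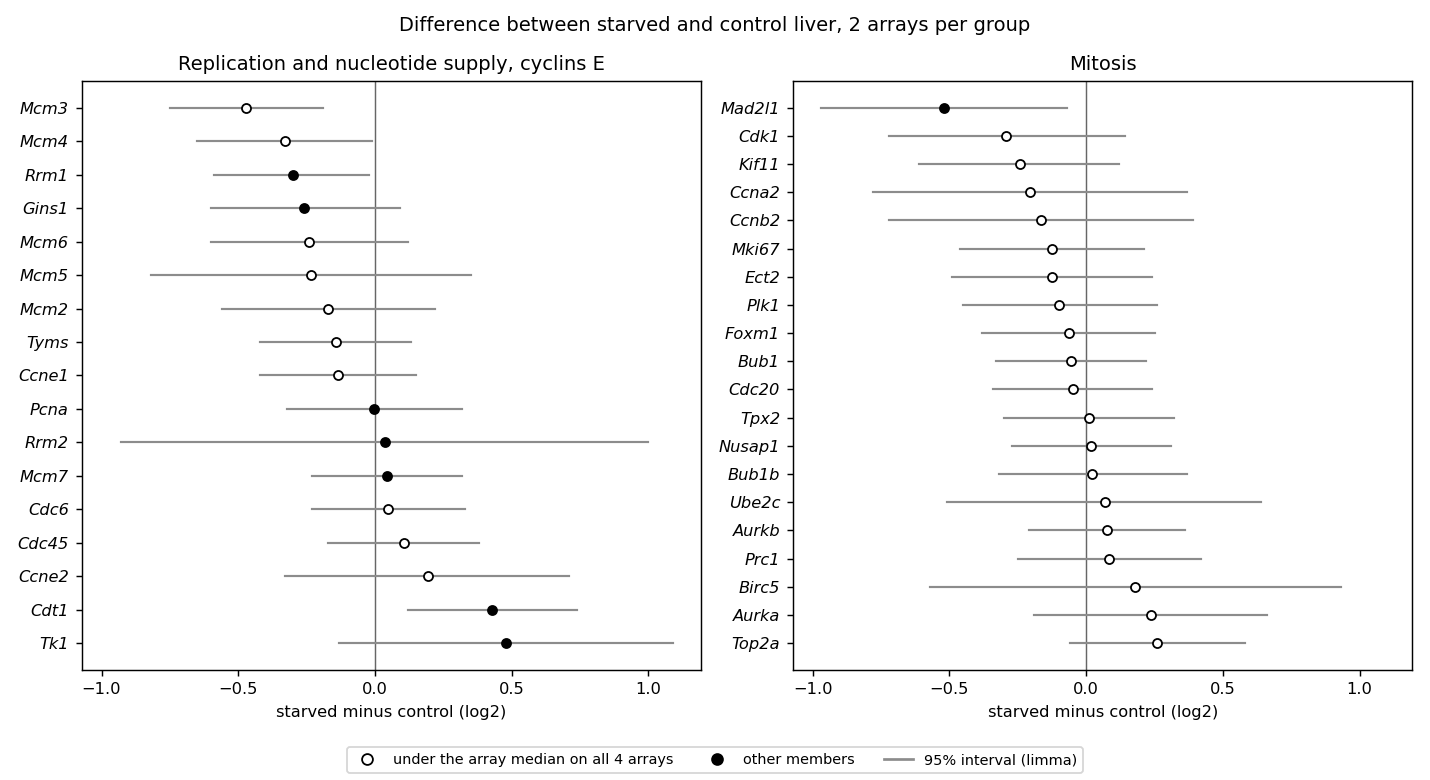
Difference of the group means (starved minus control, log2, horizontal axis) of each member with its 95% interval from limma, 2 arrays per group; open points mark members under the array median on all 4 arrays. The differences run from -0.52 (Mad2l1) to 0.48 (Tk1), and 32 of the 37 intervals hold 0.

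Of the MCM helicase, which unwinds DNA at origins and forks, 5 of 6 subunits read lower in starved liver, and the median difference over the 6 was -0.24. These 5 were all low, and only Mcm7, which was not lower, lay above the median. Mcm3 read 5.75 and 5.82 on the control arrays and 5.28 and 5.34 on the starved arrays. The groups did not overlap, and the difference was -0.47 ± 0.11 (SE), or 1.39-fold lower, with an adjusted p = 0.24 in limma. Its 4 further probe sets gave -0.33, -0.26, -0.24 and -0.02, all lower and all low. Mcm4 read 6.46 and 6.48 in control and 6.03 and 6.26 in starved liver, a difference of -0.33 ± 0.13 (SE; adjusted p = 0.437, limma). A second Mcm4 probe set, of the _x_at type, read 6.06 and 6.12 against 5.16 and 5.34, a difference of -0.84. Both probe sets of Mcm4 thus placed the starved arrays under the control arrays, by unequal amounts. Mcm6 read 6.15 and 5.82 in control and 5.77 and 5.72 in starved liver, without overlap (-0.24 ± 0.15, SE), while its second probe set gave 0.11. Mcm2 (6.65 and 6.41 against 6.22 and 6.51) and Mcm5 (3.79 and 4.40 against 3.68 and 4.04, very low) overlapped between the groups. Mcm7 stood apart from these: it read 8.62 and 8.61 in control and 8.68 and 8.62 in starved liver, and its 4 probe sets gave differences of -0.08 to 0.04. Its starved arrays lay above its control arrays without overlap, by a margin smaller than the rounding. Of 16 MCM probe sets in all, 13 were lower in starved liver, with a median of -0.23.

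The MCM signals were lowest on the starved 1 array for 4 of the 6 subunits, where 3200 of all 12393 genes were. Without that array their median difference was -0.13, and without starved 2 it was -0.37. Degraded RNA lowers 5′ relative to 3′ signal, and for actin the 3′ minus 5′ signal (log2) was also largest on starved 1: it was 1.79 and 1.76 in control and 2.06 and 1.85 in starved livers. For Gapdh it was 0.65 and 0.54 in control against 0.86 and 0.48 in starved livers. The part of RNA integrity in the MCM differences was not tested.

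The genes that load and fire the helicase differed in direction, and none passed the test. Cdt1, the licensing factor that brings MCM to origins, read 6.79 and 6.99 in control and 7.30 and 7.33 in starved liver. The groups did not overlap, and the difference was 0.43 ± 0.13 (SE), or 1.35-fold higher, with an adjusted p = 0.305 in limma. Its 2 further probe sets gave 0.03 and -0.11, so the higher reading rests on 1 of 3 probe sets. Cdc6, which loads MCM together with Cdt1, was very low and read 3.79 and 3.87 against 3.88 and 3.87. Cdc45, a partner of MCM in the active helicase, read 6.12 and 6.07 against 6.17 and 6.22, without overlap, a difference of 0.11 ± 0.11 (SE). Gins1, of the GINS complex in that helicase, read 7.41 and 7.38 in control and 7.0 and 7.28 in starved liver. Its groups did not overlap (-0.26 ± 0.14, SE; adjusted p = 0.547, limma). Pcna, the sliding clamp of the DNA polymerases, read 10.19 and 10.0 against 10.03 and 10.15, with a difference of -0.002 and a 95% interval of -0.32 to 0.32.

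Nucleotide supply was uneven. Rrm1, the large subunit of ribonucleotide reductase, read 7.36 and 7.47 in control and 7.10 and 7.13 in starved liver, without overlap (-0.30 ± 0.12, SE; adjusted p = 0.431, limma). Its second probe set gave 0.03. Rrm2, the small subunit that limits the enzyme in S phase, read 7.56 and 7.20 in control livers and 8.02 and 6.81 in the starved livers. The starved arrays held both the highest and the lowest value, so the groups could not be told apart (0.035 ± 0.39, SE). A second Rrm2 probe set showed the same order, with 6.76 and 6.46 in control and 7.19 and 5.64 in starved liver, and the last, low one read 5.78 and 5.74 against 5.59 and 5.45. Tk1, the thymidine kinase of the salvage pathway, read 8.07 and 7.35 in control and 8.11 and 8.27 in starved liver, without overlap. Its difference of 0.48 ± 0.25 (SE; adjusted p = 0.527, limma) was 0.12 without control 2 and 0.84 without control 1. Tyms, the thymidylate synthase, was very low, at 4.19 and 4.22 against 4.05 and 4.08 without overlap, and its 2 further probe sets gave 0.16 and -0.13.

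Of the cyclins E, which drive entry into S phase with Cdk2, Ccne1 read 6.92 and 7.02 in control and 6.83 and 6.84 in starved liver. Ccne2 read 5.10 and 4.52 against 4.93 and 5.09. The differences were -0.14 ± 0.11 and 0.20 ± 0.21 (SE), and the groups overlapped for Ccne2 but not for Ccne1.

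Mitosis genes were low in both groups and differed by small amounts, 9 of 20 higher and 11 lower in starved liver. Cdk1, the kinase that starts mitosis, read 6.47 and 6.52 in control and 6.43 and 5.97 in starved liver (-0.29 ± 0.17, SE; adjusted p = 0.590, limma). The groups did not overlap, but starved 1 lay close to the control arrays and starved 2 below them. Among its cyclins, Ccna2 read 5.12 and 5.81 against 5.24 and 5.27, and Ccnb2 read 3.96 and 4.61 against 4.16 and 4.08. In both cyclins control 2 was the highest array and control 1 the lowest, so the difference turned from below to above 0 when control 2 was left out. Foxm1, a transcription factor of mitotic genes, read 6.95 and 6.74 against 6.76 and 6.80, and its 4 probe sets gave -0.06 to 0.19. Mki67, the antigen Ki-67 that coats mitotic chromosomes and marks cycling cells, was very low, at 4.53 and 4.73 in control and 4.41 and 4.60 in starved liver. Top2a, the topoisomerase that untangles sister chromatids, was very low as well and read 5.08 and 5.0 against 5.19 and 5.41, without overlap (0.26 ± 0.13, SE; adjusted p = 0.521, limma). A second Top2a probe set gave 0.07.

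Among spindle checkpoint genes, Mad2l1, which holds back anaphase until chromosomes are attached, read 6.83 and 7.25 in control and 6.65 and 6.40 in starved liver. The groups did not overlap, and the difference of -0.52 ± 0.18 (SE) was 1.43-fold lower, with an adjusted p = 0.39 in limma. It was -0.31 without control 2 and -0.73 without control 1, and no second probe set was at hand to compare. The checkpoint kinase Bub1 (3.49 and 3.48 against 3.43 and 3.42, without overlap) and its relative Bub1b (5.25 and 4.97 against 5.08 and 5.18) were very low, with differences of -0.06 ± 0.11 and 0.02 ± 0.14 (SE). Cdc20, which activates the anaphase-promoting complex, read 6.78 and 6.87 against 6.82 and 6.73, whereas 2 further probe sets gave -0.42 and -0.16 without overlap. Ube2c, the ubiquitin-conjugating enzyme of that complex, read 5.04 and 5.46 against 5.59 and 5.04.

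The mitotic kinases and spindle proteins showed no common direction. Aurka (4.28 and 4.68 against 4.62 and 4.81) had a difference of 0.24 ± 0.17 (SE), Aurkb (3.66 and 3.76 against 3.79 and 3.78, without overlap) of 0.08 ± 0.11, and Plk1 (5.71 and 6.0 against 5.70 and 5.81) of -0.10 ± 0.14. Birc5, survivin of the complex that Aurkb serves in, read 4.38 and 5.24 in control and 5.19 and 4.79 in starved liver, so the control mice differed from each other more than the groups did. The motor Kif11, which pushes spindle poles apart, read 5.25 and 5.54 against 5.22 and 5.07, without overlap (-0.24 ± 0.15, SE), and its 2 further probe sets gave -0.06 and -0.19. Tpx2 and Nusap1 help to assemble spindle microtubules. Tpx2 read 3.95 and 4.05 against 3.92 and 4.09, and Nusap1 read 4.95 and 4.98 against 5.05 and 4.92. Prc1, which bundles the midzone of the spindle, read 5.75 and 5.52 against 5.79 and 5.65, a difference of 0.08 ± 0.14 (SE). Its second probe set gave -0.09. Ect2, which starts the cleavage furrow, read 4.58 and 4.62 in control and 4.31 and 4.63 in starved liver (-0.13 ± 0.15, SE). In these 4 genes the groups overlapped.

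Replication and mitosis members could not be separated by their response. The median difference was -0.14 over 15 replication members and -0.05 over 20 mitosis members, and the gap of -0.09 between them was smaller than its spread between replicate arrays (SD 0.128). Over the 4 pairings of a starved with a control array, the median ran from -0.14 to -0.05 for replication and from -0.10 to 0.03 for mitosis. The gap between the medians turned to 0.07 without control 1 and to 0.10 when the lowest 40% of genes by mean signal were removed. That removal left only Cdc20, Mad2l1 and Foxm1 of the mitosis members. Within replication, the 8 low members had a median of -0.20 and the other 7 of 0.04. No p is given, since members are not replicates and 2 arrays against 2 allow no permutation p below 0.333.

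Control 2 was the highest array for 9 of the 20 mitosis members, and the mean deviation of these genes from their own mean was 0.12 on it, against -0.07, 0.00 and -0.05 on control 1, starved 1 and starved 2. Of all 12393 genes, 2921 were highest on control 2. Without control 2 the mitosis median was 0.02, and without control 1 it was -0.12. Some markers of other cells were also highest on that array. Of 9 markers of neutrophils and granulocyte precursors, 6 were highest on control 2, although 0 of the 9 lay above the median on all arrays. Their summed signal (log2) was 10.46 there, 8.85 on control 1 and 8.77 and 9.11 on the starved arrays. The largest terms of that sum were Prtn3 (9.45 on control 2 against 6.64 on control 1), S100a9 (7.93 against 6.29) and S100a8 (7.67 against 5.53). Of the other markers Ngp read 5.76 against 5.75, and Camp, Elane and Ctsg were not highest on control 2. Of 8 macrophage markers 6 were highest on control 2 (sum 12.81 there, 12.53 on control 1, 12.51 and 12.63 on the starved arrays). The sums of 7 of 10 erythroid markers were 11.12 and 10.76 in control and 11.21 and 10.95 in starved liver, those of 8 of 10 lymphocyte markers 9.32 and 9.37 against 9.32 and 9.53, and those of 6 endothelial markers 10.58 and 9.73 against 10.56 and 10.10. Stellate cell markers summed to 12.25 and 11.32 against 11.98 and 12.02, and 4 of 5 cholangiocyte markers to 7.63 and 7.62 against 7.74 and 8.01. In these lists, 6 of 8 macrophage, 4 of 7 erythroid, 3 of 6 endothelial, 2 of 6 stellate, 1 of 8 lymphocyte and 0 of 4 cholangiocyte markers lay above the median on all arrays. The part of these cells in the signals of the mitosis members was not tested.

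**Figure D4:**
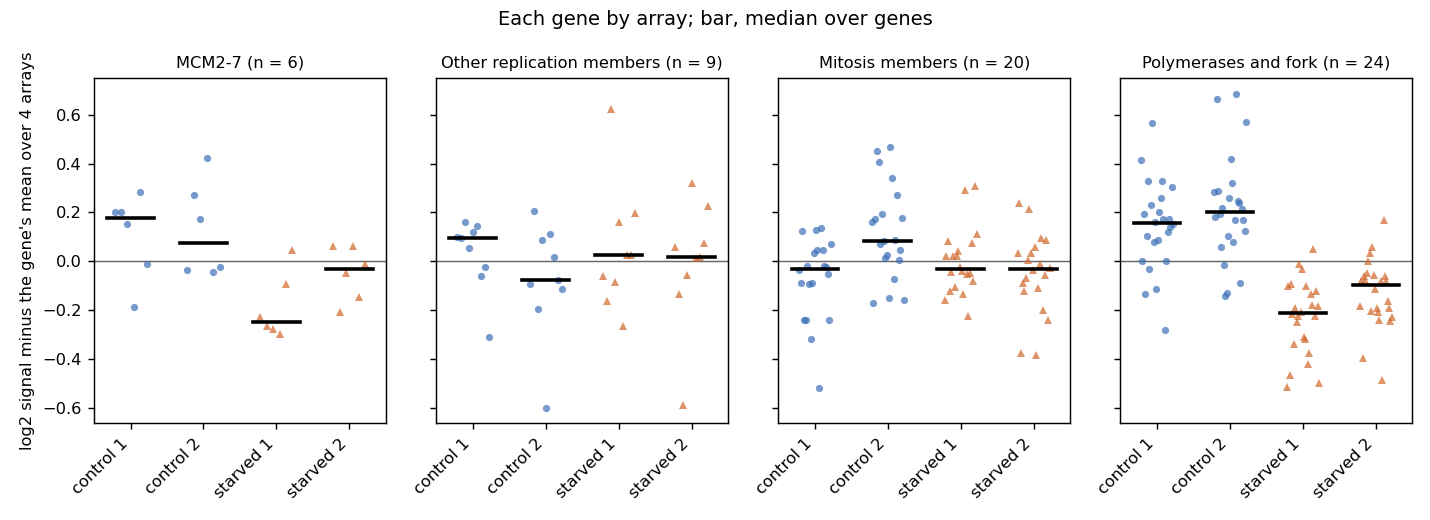
Log2 signal of each gene minus its own mean over the 4 arrays (vertical axis), by array, for the 6 MCM subunits, the 9 other replication members, the 20 mitosis members and 24 polymerase and fork genes; bars are medians over genes. The polymerase and fork genes have medians of 0.16 and 0.20 on the control arrays and -0.21 and -0.09 on the starved arrays, and the mitosis members of -0.03 and 0.08 against -0.03 and -0.03.

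The wider pathway was followed through 7 further lists of 129 genes, 111 of them measured, that do not hold the members. None of the 111 passed the limma test over all genes (smallest adjusted p = 0.10, for Smc2), 2 were higher and 17 lower past an unadjusted p of 0.05 (5.25% and 6.02% of all genes were), and the median difference was -0.11. The list of DNA polymerases and fork proteins held 11 of those 17. The list also takes in Dut and Dck, of nucleotide supply, and Uhrf1 and Dnmt1, of DNA methylation, each of them among the 11. In it 22 of 24 measured genes read lower in starved liver, where 6090 of all 12393 genes did. Of the 24, 12 were low, Pola1 among them, where 46.9% of all genes were. The groups of 17 did not overlap, all 17 lower (20.9% of all genes were), and the median difference was -0.33. Prim1, the primase that starts each new strand, read 6.85 and 7.32 in control and 6.19 and 6.26 in starved liver (-0.86 ± 0.18, SE; adjusted p = 0.188, limma). Pola1, the catalytic subunit of the polymerase that extends its primers, read 6.67 and 6.54 against 5.74 and 6.07 (-0.70 ± 0.15, SE), and Rpa3, of the complex that covers single-stranded DNA, read 7.74 and 8.25 against 7.19 and 7.08 (-0.86 ± 0.19, SE; both adjusted p = 0.198, limma). The 2 genes of the list that were not lower, the clamp loader subunit Rfc1 and the flap nuclease Fen1, had differences of 0.05 ± 0.13 and 0.03 ± 0.21. Of 17 further probe sets of these genes, 14 were lower and 10 did not overlap, all 10 lower. They read the same genes in the same livers, and the share over all probe sets was not counted. Starved 1 was the lowest array for 15 of the 24, and without it the median was -0.29 and 5 genes, not 11, passed the unadjusted threshold (7 without control 1). Of all 12393 genes, 3200 were lowest on starved 1. The part of RNA integrity, given above, was not tested here either. E2F motifs stood in 5 of 21 promoters of this list that matched (23.8%).

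In the list of origin and helicase genes, 7 of 13 read higher and 6 lower, with a median of 0.009. Mcm10, which links the helicase to the polymerase, read 10.90 and 10.57 in control and 9.82 and 10.23 in starved liver (-0.71 ± 0.19, SE; adjusted p = 0.278, limma). Orc5, of the origin recognition complex, had a difference of 0.41 ± 0.13, and the low gene Dbf4, activator of the Cdc7 kinase, of -0.79 ± 0.32 (SE). That of Dbf4 was -0.28 without control 2, -1.30 without control 1 and -0.32 over the mean of its probe sets, and that of Mcm10 was -0.45 over the mean of its probe sets.

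Cyclins, CDKs and CDC25 phosphatases had a median of -0.004 over 15 genes. Ccnd1, the cyclin D that answers to growth signals in G1, read 8.64 and 9.69 in control and 6.99 and 7.92 in starved liver, without overlap. Its difference of -1.71 ± 0.43 (SE; adjusted p = 0.254, limma) ran from -2.24 to -1.19 when 1 array was left out. Cks2, a small partner of CDKs, and Cdk2, the kinase of cyclin E, had 0.31 ± 0.12 and -0.27 ± 0.11 (SE).

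E2F, RB and DREAM genes had a median of -0.11 over 13 measured, with 5 higher and 8 lower. The pocket protein Rbl1, which was low, and the repressor E2f6 had differences of -0.49 ± 0.18 and -0.47 ± 0.18, and Rb1, the retinoblastoma protein, of 0.36 ± 0.17 (SE). Without starved 1 these were -0.30, -0.24 and 0.17.

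The remaining lists concern mitosis. Kinetochore and checkpoint genes had a median of -0.02 over 14 and spindle and cytokinesis genes of -0.14 over 14, with 12 low genes in each list and 0 past an unadjusted p of 0.05. In the first list Zwint, Bub3 and Cenpa had differences of 0.25 ± 0.17, -0.18 ± 0.13 and -0.33 ± 0.24 (SE), but 0.05, -0.27 and 0.03 without control 2. In the second, Anln, which shapes the cleavage furrow, had -0.35 ± 0.14, Kif4 -0.23 ± 0.12 and Aspm -0.24 ± 0.13 (SE). Without starved 1 Anln had -0.20 and Aspm -0.15. Genes of the anaphase-promoting complex, separase and chromosome structure had a median of -0.04 over 18. Among them Smc2, a condensin subunit that compacts chromosomes, read 6.67 and 6.38 in control and 5.57 and 5.39 in starved liver (-1.05 ± 0.15, SE; adjusted p = 0.10, limma), and Fzr1 had -0.29 ± 0.12 (SE). Cdc23 had -0.29 ± 0.11 (SE) on an _s_at probe set, but 0.19 without such probe sets and -0.05 over the mean of its probe sets. Smc2, Fzr1 and Cdc23 were all low.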

How the data were processed

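The deposited values are log2 signals of Affymetrix probe sets from 1 array per mouse. Per the submitters' processing notes the authors used affy and RMA; their versions and settings were not given in the sources used here, and no detection calls were used. The signals ran from 2.83 to 15.47. Of 22690 probe sets, 64 controls, 691 with several gene symbols and 1555 with none were left out of the tests. Symbols were updated through Entrez identifiers in the RefSeq table of GRCm38.p6 (20351 of 20380 matched). Each of 12393 genes kept its probe set with the highest mean.

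The starved and control arrays entered a two-sided limma test (version 3.58.1, R 4.3.3; lmFit, then eBayes) with the Benjamini-Hochberg adjustment over all genes at 0.05 and no covariate; intervals of 95% use its moderated standard errors. Precision is limited by the number of arrays. The members, lists and tests were chosen with earlier results of these data known. All measured members are given, and of each further list up to 3 genes with the smallest p. Probe sets ending in _x_at or _s_at, used for 6 members, may read related transcripts. Promoters were searched as described with them.

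The alternatives were a median shift, quantile normalization, removal of the lowest 40% of genes by mean signal, averaging a gene's probe sets, removal of _x_at and _s_at probe sets, trend and robust settings, a replicate block and each array left out. Replicate numbers were not used to pair the arrays.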

Additional observations from a re-analysis of the deposited data

How the results depend on the processing

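No member passed the adjusted limma threshold under any alternative that kept all 4 arrays. Trend and robust settings act on variances only, so the medians and the counts without overlap could not change. With them 4 members, in place of 5, passed an unadjusted p of 0.05 in limma. The count of 5 members past an unadjusted p of 0.05 was 3 after a median shift, 3 when the lowest 40% of genes by mean signal were filtered out (11 members were left), 3 with the mean of all probe sets, and 3 to 7 with 1 array left out. With the replicate number as a block it was 2. Deviations of same-numbered arrays had a correlation of 0.0171 across genes. With 2 arrays per group this cannot show whether the numbers pair the mice. Members without overlap numbered 7 with the filter and 23 to 29 with 1 array left out. In the latter 1 array faces 2, so groups fail to overlap more easily, also without a difference. The share of all genes without overlap was not counted in these settings, so these counts show no result about the members. The members' median was -0.111 without _x_at and _s_at probe sets. The replication median was 0.035 with the filter, -0.064 with the mean of all probe sets and -0.155 to -0.052 with 1 array left out, and the mitosis median then ran from -0.118 to 0.017. Replication minus mitosis was 0.098 with the filter, which kept only Cdc20, Mad2l1 and Foxm1 for mitosis, and -0.147 to 0.066 with 1 array left out. With the filter, 12 polymerase and fork genes were lower, 11 without overlap and 7 past the unadjusted threshold (5 to 10 with 1 array left out), and the MCM median, of Mcm7 alone, was 0.043 (-0.366 to -0.134 with 1 array left out). These last alternatives, for the polymerase and MCM lists, were chosen after seeing the data. Low members numbered 15 by the lower quartile.

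Some differences turned sign, those of Cdc23, Cenpa, Mcm5 and Ccna2 among them, which were not near 0. A median shift gave Pcna 0.006, and quantile normalization gave Pcna 0.006 and Tpx2 -0.007. The mean of all probe sets gave Foxm1 0.035, Mcm7 -0.010, Rrm2 -0.132 and Prc1 -0.003. Without _x_at and _s_at probe sets Mcm7 was -0.021, Rrm2 -0.191, Prc1 -0.090 and Cdc23 0.191. With 1 array left out the ranges were -0.551 to 0.141 for Ccna2, -0.491 to 0.159 for Ccnb2, -0.097 to 0.486 for Ccne2, -0.241 to 0.045 for Plk1, -0.117 to 0.159 for Bub1b, -0.255 to 0.614 for Birc5, -0.170 to 0.044 for Foxm1, -0.536 to 0.070 for Mcm5, -0.095 to 0.090 for Pcna, -0.573 to 0.643 for Rrm2, -0.286 to 0.036 for Ect2, -0.049 to 0.085 for Nusap1, -0.074 to 0.095 for Tpx2, -0.204 to 0.342 for Ube2c, -0.032 to 0.198 for Prc1 and -0.690 to 0.030 for Cenpa. None of these genes was called, and the cause was not tested.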
